A study of Homo sapiens with 4 samples.

Results

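The genes described are the 8 rows of the deposited tables whose symbols are FOS, FOSB, FOSL1, FOSL2, JUN, JUNB, JUND and MAFF, out of 22494 features. All 8 were found by symbol, once each, and all 8 averaged 1 CPM or more (counts scaled to library size) in each cell line. Poly(A) RNA was sequenced from HEC-1-A and RL-95-2, which are established human endometrial cancer cell lines, transfected either with tRF-20-S998LO9D mimic, which copies a fragment of a transfer RNA, or with the negative control of the mimic. This gave 4 libraries: HEC-1-A mimic, HEC-1-A control, RL-95-2 mimic and RL-95-2 control, each 1 library. Whether both libraries of a line derive from separate cultures is not stated. A value within a line therefore has no replicate check, and the intervals given for it cover counting error only.

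AP-1 is a transcription factor built as a dimer of basic leucine zipper (bZIP) proteins. FOS proteins do not pair with themselves and bind DNA with a JUN partner, while JUN proteins also pair with each other. The dimers bind TGACTCA and, with some partners, TGACGTCA. Most of the genes are immediate early genes, which growth factors, stress and MAP kinases switch on within minutes and whose mRNAs decay fast. MAFF encodes a small MAF protein, a bZIP factor without an activation domain that pairs with itself, with CNC factors such as NRF2 and, in some assays, with FOS.

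In RL-95-2, all 8 genes were lower in the mimic library than in the control library, and 6 of the 8 were at least 2-fold lower. In HEC-1-A, 7 of the 8 were slightly higher in the mimic library, with no member at 2-fold, and JUNB was level. FOSB, whose protein is an activating FOS family member and whose splice variant is the stable DeltaFOSB, had the widest difference, at 27.4-fold lower with the mimic in RL-95-2 and 1.58-fold higher in HEC-1-A. MAFF was 4.64-fold lower and FOS, the prototype of the family, 3.84-fold lower in RL-95-2. FOSB, MAFF and FOS thus had the lowest ratios and JUNB the ratio nearest to 0.

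The start regions of the 3 genes with the lowest ratios, of JUN and of JUNB are shown because these genes span the range of ratios. Each line below holds the 120 bases before the gene's start in RefSeq (GRCh38.p14), 5′ to 3′. Capitals mark TGACGT or TGACGTCA, the cAMP response element core, TGACATCA, a form of the AP-1 site, and TATAAA.

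FOSB (chr19:45467876-45467995, plus strand): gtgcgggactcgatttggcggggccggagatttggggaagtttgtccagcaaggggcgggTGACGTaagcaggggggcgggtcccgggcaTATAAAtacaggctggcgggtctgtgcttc
MAFF (chr22:38201874-38201993, plus strand): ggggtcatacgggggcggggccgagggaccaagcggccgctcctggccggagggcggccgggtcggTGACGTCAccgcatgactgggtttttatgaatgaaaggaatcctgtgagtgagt
FOS (chr14:75278708-75278827, plus strand): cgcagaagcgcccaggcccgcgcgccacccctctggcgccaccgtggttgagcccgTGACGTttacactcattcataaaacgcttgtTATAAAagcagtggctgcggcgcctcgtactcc
JUN (chr1:58784048-58784167, minus strand): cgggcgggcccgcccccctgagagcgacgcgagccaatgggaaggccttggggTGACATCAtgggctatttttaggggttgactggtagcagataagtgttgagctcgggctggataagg
JUNB (chr19:12791366-12791485, plus strand): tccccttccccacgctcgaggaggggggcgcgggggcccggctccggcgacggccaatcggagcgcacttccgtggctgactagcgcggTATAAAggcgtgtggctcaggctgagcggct

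A start region was listed for 7 of the 8 genes, and FOSL1 had none in the table used. MAFF has 2 listed starts, and the upstream one is shown. GENCODE release 29 places the starts of FOS, JUN and MAFF further upstream, so that part of the FOS stretch and all of the JUN and MAFF stretches lie inside its gene models. Searched on both strands over 250 bases before the start, TGACGT was found in 5 of the 7 genes, FOS, FOSB, FOSL2, JUND and MAFF, and in 7.10% of all 35116 listed promoters. The longer TGACGTCA, which contains it on both strands, was found in JUND and MAFF and in 1.65% of all promoters, and JUND held a further TGACGT outside it, on the reverse strand. JUN held TGACATCA, found in 2.37% of all promoters, and TATAAA was found in FOS, FOSB and JUNB and in 10.7% of all. TGACTCA was found in 0 of the 7 and in 4.20% of all. These matches describe the letters of the windows only, and whether they bear on the ratios was not tested.

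The 4 libraries held 33575882 to 46220053 counts. The tissue labels were checked with 7 epithelial markers, of which 6 were at 1 FPKM or more in all 4 libraries, with EPCAM between 76.9 and 132 FPKM. Of 5 blood and immune markers, 0 reached 1 FPKM in any library. The 5 stromal markers, led by COL1A1, summed to 11.2 FPKM in the mimic and 12.4 FPKM in the control library of RL-95-2. Of 3 endothelial markers, CDH5 was at 6.11 and 3.11 FPKM in these libraries. VWF was at 0.018 and 0.015 FPKM there, and PECAM1 had 0 counts in both. In HEC-1-A the stromal sum was 1.48 and 0.548 FPKM, and CDH5 had 0 counts in both libraries. The summed FPKM of the epithelial list was 1903 in the mimic and 999 in the control library of RL-95-2, and 513 and 603 in HEC-1-A. In RL-95-2, FPKM with the mimic and the control was 728 and 171 for KRT8, 648 and 468 for KRT18 and 351 and 172 for KRT19. CDH1 was at 40.3 and 36.1 FPKM there. On FPKM, EPCAM (76.9 and 81.0), PAX8 (57.6 and 69.5) and MUC1 (0.637 and 0.989) were lower with the mimic. MUC1 had 101 raw counts with the mimic and 79 with the control, so its count did not fall with its FPKM. Whether these differences have a part in the ratios of the AP-1 genes was not tested.

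Among the FOS family genes, FOSB (chromosome 19, 45467995 to 45475179, plus strand, GRCh38) had 33 counts in the RL-95-2 mimic library and 766 in its control library, which is 0.669 and 19.6 CPM after TMM scaling. In HEC-1-A it had 708 and 331 counts, or 15.8 and 9.99 CPM. The RL-95-2 mimic library was thus the lowest of the 4, and the other 3 lay between 9.99 and 19.6 CPM. The log2 ratio of mimic over control was -4.78 in RL-95-2 (95% counting interval -5.42 to -4.37), the 10th lowest of 13151 genes, and 0.66 in HEC-1-A (0.47 to 0.86).

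FOS (chromosome 14, 75278774 to 75282230) had 421 counts with the mimic and 1285 with the control in RL-95-2, or 8.54 and 32.9 CPM. In HEC-1-A it had 1122 and 679 counts, or 25.1 and 20.5 CPM. Its log2 ratios were -1.94 (-2.11 to -1.79) in RL-95-2 and 0.29 (0.15 to 0.43) in HEC-1-A. On the deposited FPKM values the RL-95-2 log2 ratio of FOS was -1.45, closer to 0 than on counts.

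FOSL1 and FOSL2 encode FRA-1 and FRA-2, FOS family proteins that lack the strong activation domain of FOS and accumulate later than it. FOSL2 (chromosome 2, 28392448 to 28417312) was at 111 CPM with the mimic and 242 CPM with the control in RL-95-2, and at 337 and 235 CPM in HEC-1-A. Its log2 ratios were -1.12 (-1.17 to -1.07) and 0.52 (0.48 to 0.56). FOSL1 (chromosome 11, 65892049 to 65900573) was at 32.3 and 63.4 CPM in RL-95-2 and at 181 and 157 CPM in HEC-1-A, with log2 ratios of -0.97 (-1.06 to -0.88) and 0.21 (0.16 to 0.26). FOSL1 stood just short of 2-fold in RL-95-2 (1.96-fold lower), and FOSL2 just past it (2.17-fold lower).

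Among the JUN family genes, JUN (chromosome 1, 58780788 to 58784327, minus strand), which encodes the strongest activator of the JUN proteins, had 3430 counts with the mimic and 7008 with the control in RL-95-2, or 69.6 and 179.6 CPM. In HEC-1-A it had 10032 and 5403 counts, or 224 and 163 CPM. The log2 ratios were -1.37 (-1.43 to -1.31) and 0.46 (0.41 to 0.51). JUND, the JUN protein most often present in resting cells, was at 37.3 and 83.3 CPM in RL-95-2 and at 94.6 and 88.1 CPM in HEC-1-A. Its log2 ratios were -1.16 (-1.24 to -1.07) and 0.10 (0.03 to 0.17).

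JUNB (chromosome 19, 12791496 to 12793315, plus strand), a JUN protein that activates less than JUN and can hold it back, had 8487 counts with the mimic and 10583 with the control in RL-95-2, or 172 and 271 CPM. Its RL-95-2 log2 ratio of -0.66 (-0.70 to -0.61) was the smallest difference of the family, at 1.57-fold lower. In HEC-1-A it was at 85.8 CPM in both libraries, with a log2 ratio of 0.00 (-0.07 to 0.07). That interval holds 0, and the sign turned with RLE factors (-0.01), library totals (-0.02) and log2(FPKM + 1) (-0.03).

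MAFF (chromosome 22, 38200767 to 38216511, plus strand) had 851 counts with the mimic and 3132 with the control in RL-95-2, or 17.3 and 80.2 CPM. In HEC-1-A it had 4725 and 2527 counts, or 106 and 76.3 CPM. Its log2 ratios were -2.21 (-2.33 to -2.11), the 130th lowest of 13151 genes, and 0.47 (0.40 to 0.54). Apart from FOSB, no other member had a lower RL-95-2 ratio.

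**Figure D1:**
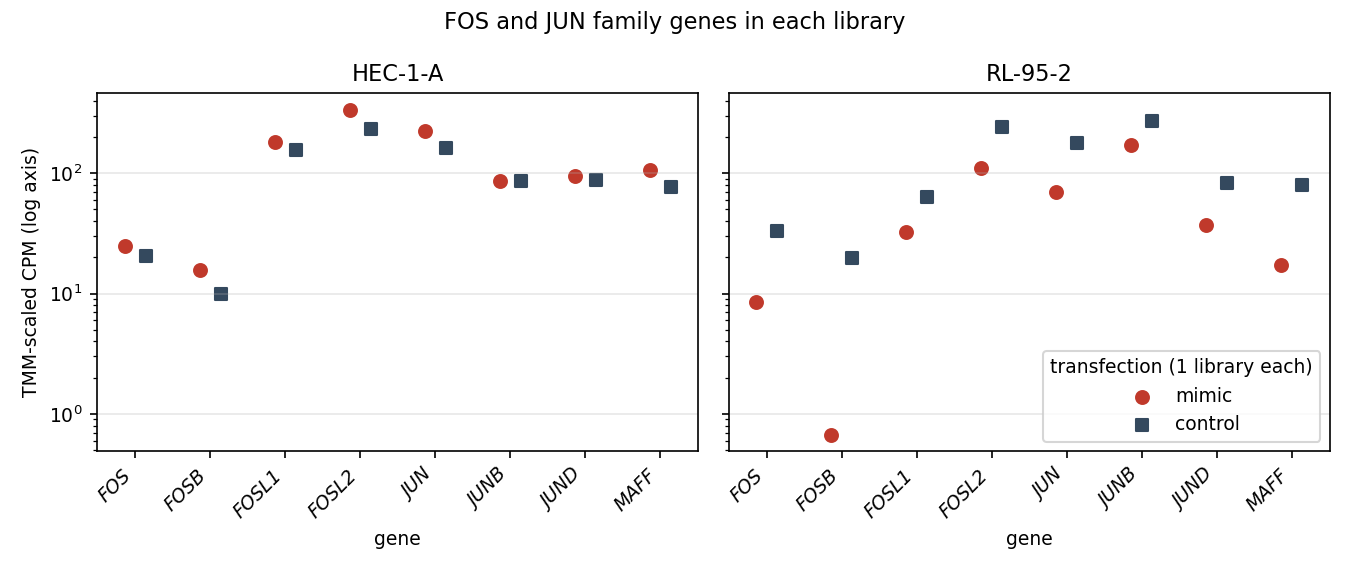
TMM-scaled CPM (log axis) of the 8 genes in HEC-1-A (left) and RL-95-2 (right), with the mimic library as a red circle and the control library as a dark square, 1 library each. In RL-95-2 every circle lies under its square, most of all FOSB at 0.669 against 19.6 CPM, while in HEC-1-A the circles lie level with or above the squares.

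The size of these shares was read against all genes. In RL-95-2, 6.52% of the 13151 genes that averaged 1 CPM or more were at least 2-fold lower with the mimic, against 6 of the 8 members, and 4.71% were at least 2-fold higher, against 0 members. In HEC-1-A, 0.871% of 12981 genes stood 2-fold or more above the control library and 0.239% as far below it, against 0 members in each direction. The median log2 ratio of the 8 genes was -1.26 in RL-95-2, where that of all genes was 0.00, and 0.37 in HEC-1-A, where that of all genes was 0.02. All 8 members were below 0 in RL-95-2 and above 0 in HEC-1-A, JUNB by less than 0.01 and with a sign that turns under other scalings, and so were 29.2% of the 11913 genes measured in both lines. The number at least 2-fold lower in RL-95-2 was 5 with scaling by library total, which moved the median of all genes there to 0.13, and 4 on log2(FPKM + 1).

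**Figure D2:**
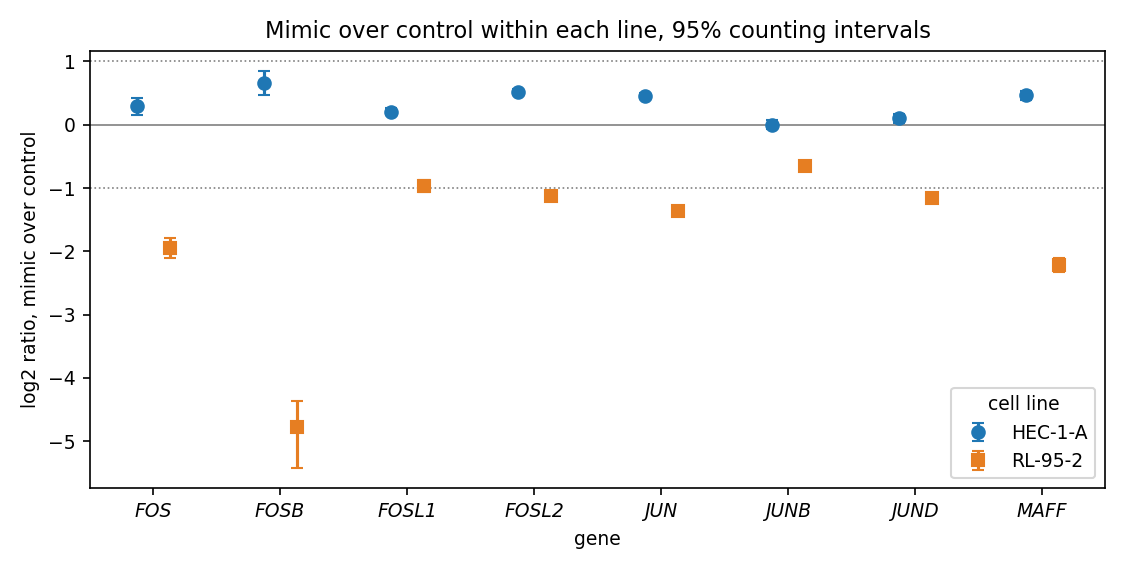
Log2 ratio of mimic over control of each gene in HEC-1-A (blue circles) and RL-95-2 (orange squares), with 95% intervals that cover counting error only and dotted lines at a 2-fold difference. The RL-95-2 ratios run from -4.78 for FOSB to -0.66 for JUNB, and the HEC-1-A ratios from 0.00 for JUNB to 0.66 for FOSB.

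**Figure D3:**
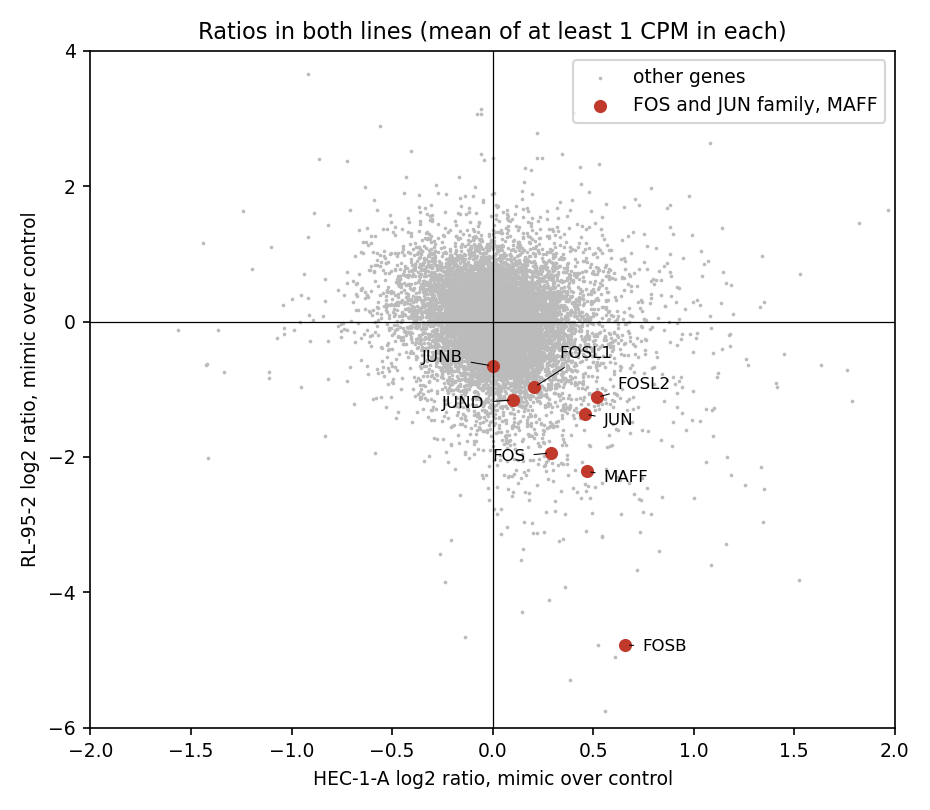
Log2 ratio of mimic over control in HEC-1-A (horizontal) against RL-95-2 (vertical) for the 11913 genes that averaged 1 CPM or more in each line, with the 8 genes in red and 17 other genes outside the axes. The 8 genes lie below 0 on the vertical axis and above 0 on the horizontal axis, except JUNB, which is at 0 and turns sign with the scaling.

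Over both lines, the test called 0 of the 8 genes higher and 0 lower in mimic over control libraries, and edgeR's quasi-likelihood test called 0.0% of 15957 genes, with 167 genes at an unadjusted p under 0.05 and none of the 8 among them. DESeq2 and limma-voom also called 0 of the 8. The edgeR log2 fold change of FOSB was -1.94 (SE 1.45, adjusted p = 0.9999), that of MAFF -0.87 (SE 0.63, adjusted p = 0.9999) and that of FOS -0.82 (SE 0.54, adjusted p = 0.9999). All 8 fold changes were below 0, with a median of -0.49, while the HEC-1-A ratios were above 0, that of JUNB by less than 0.01. A gene's own spread in this fit is the disagreement of the lines about the mimic, on 1 residual degree of freedom. The test moderates it toward the spread of the other tested genes, with 5.44 prior degrees of freedom. The SE and p-values therefore draw largely on other genes. Whether the response differs between HEC-1-A and RL-95-2 was not tested, because 1 library per line and transfection leaves no spread to test it against.

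Levels of different genes were set side by side on FPKM, which is per length. In HEC-1-A, FOSL1 was the highest member, at 101 FPKM with the mimic and 88.8 FPKM with the control. JUN (54.6 and 40.6), JUND (43.8 and 41.7), FOSL2 (43.6 and 31.0) and JUNB (40.7 and 41.6) followed, with overlapping ranges from one gene to the next, then MAFF (36.8 and 27.1 FPKM), whose range overlaps that of FOSL2. FOS (11.3 and 8.91 FPKM) and FOSB (4.35 and 2.76 FPKM) were the lowest and did not overlap with any other member.

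In RL-95-2, JUNB was the highest member, at 89.8 FPKM with the mimic and 129 FPKM with the control. JUN (18.7 and 43.8), JUND (19.0 and 38.6), FOSL1 (20.1 and 34.6) and FOSL2 (16.0 and 31.3 FPKM) had ranges that overlapped one another, as did MAFF at 6.58 and 27.8 FPKM with FOSL2. FOS was at 5.4 and 14.8 FPKM and FOSB at 0.175 and 5.72 FPKM, again the lowest of the family in each library. The order of the lower members was thus alike in the lines, and the highest member differed.

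The lines were compared with edgeR over all 4 libraries, with the transfection as a covariate, as HEC-1-A over RL-95-2. FOSL1 was higher in HEC-1-A (log2 fold change 1.90, SE 0.34, adjusted p = 0.0069), where 16.7% of 15957 genes were called higher. JUNB was lower in HEC-1-A (log2 fold change -1.33, SE 0.27, adjusted p = 0.011), where 18.3% of genes were called lower. Both kept their direction in both transfections, with log2 differences of 2.49 in mimic and 1.31 in control libraries for FOSL1 and of -1.004 and -1.66 for JUNB. The other 6 genes did not pass (adjusted p from 0.15 for JUND to 0.58 for FOS), and in control libraries alone FOSL2, JUN, JUND and MAFF differed by -0.14 to 0.08 on the log2 scale between the lines. In the mimic libraries these 4 genes were higher in HEC-1-A by 1.34 to 2.61 on the log2 scale.

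Summed over the 8 genes, FPKM was 335.9 with the mimic and 282 with the control in HEC-1-A (log2 ratio 0.25), and 176 and 325 in RL-95-2 (log2 ratio -0.89). The 4 FOS family genes summed to 41.7 and 86.4 FPKM in RL-95-2 and the 3 JUN family genes to 127 and 211 FPKM. JUNB made up 51.1% of the family's FPKM in the RL-95-2 mimic library and 39.5% in its control library, and FOSL1 30.0% and 31.4% in HEC-1-A. MAFF made up 3.75% and 8.56% in RL-95-2, and FOSB 0.0994% and 1.76%. The mRNA pool of the family in RL-95-2 was thus smaller in the mimic library, with a larger share of JUNB.

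**Figure D4:**
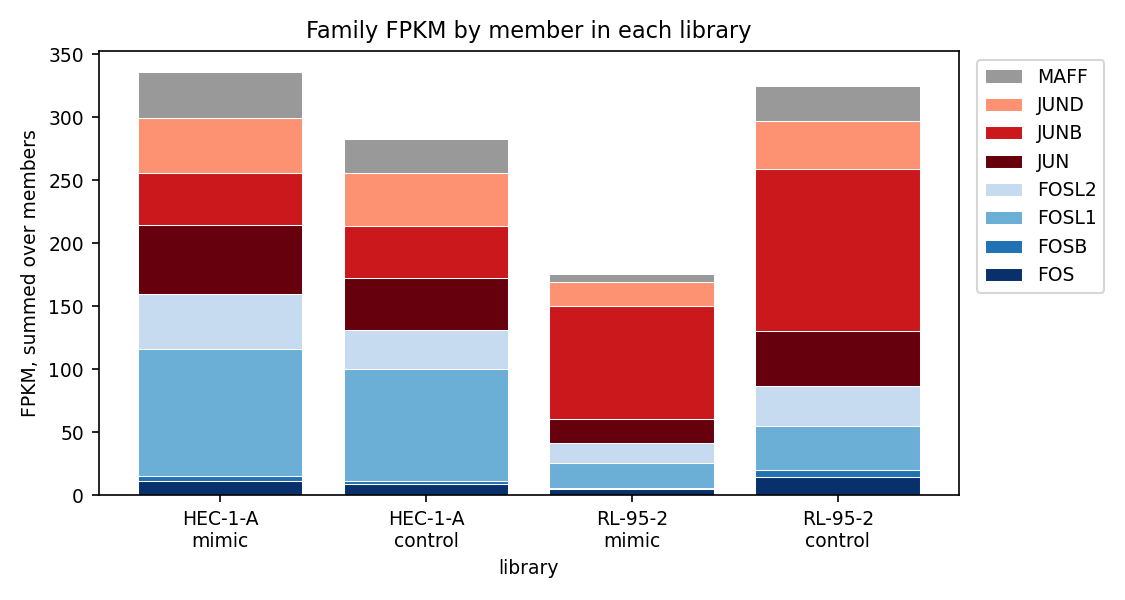
FPKM of the 8 genes stacked by library, with FOS family genes in blue, JUN family genes in red and MAFF in grey. The RL-95-2 mimic bar, at 176 FPKM, is the shortest, and JUNB is its largest segment, while FOSL1 is the largest segment of both HEC-1-A bars.

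Exon numbers and the letters of the 3′ UTRs were compared across the family. JUN, JUNB and JUND each have 1 exon in GENCODE release 29, FOS, FOSB, FOSL1 and FOSL2 have 4 and MAFF has 3. ATTTA, the core of AU-rich elements that mark short-lived mRNAs, occurs 5 times in the 809 bases of the FOS 3′ UTR, and 5.14% of 10375 genes measured in both lines have it at least as densely. In the FOSB 3′ UTR it occurs 3 times in 2169 bases, a density that 56.6% of genes reach. The density was highest in FOS, at 6.18 per kb, then in JUNB, at 3.98 per kb, and was 1.38 to 2.44 per kb in the other 6 genes. Whether it bears on the ratios was not tested.

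Genes of the counts table that overlap members on the other strand were ERCC1 with FOSB, HOOK2 with JUNB and PLA2G6 with MAFF. FLJ31356, on the other strand, and AC104695.3, on the same strand, overlap FOSL2 with 0 shared exonic bases and have no row matched by symbol. The strand setting of the counts is not given in the sources used here. Exons of ERCC1 and PLA2G6 share 0 bases with those of FOSB and MAFF, while HOOK2 exons share 259 of the 1820 exonic bases of JUNB. The JUNB values may therefore depend on the strand setting, by an amount that the shared bases do not give. ERCC1, a DNA repair nuclease subunit, had log2 ratios of -0.72 in RL-95-2 and -0.07 in HEC-1-A, HOOK2 0.04 and -0.17, and PLA2G6 -0.58 and 0.13.

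Several genes of a list of other bZIP factors, most of which can pair with FOS or JUN, were lower with the mimic in RL-95-2. Of 10 measured genes of this list, 3 were at least 2-fold lower and 0 at least 2-fold higher there, with a median log2 ratio of -0.68. In HEC-1-A, 0 of 9 were past 2-fold in either direction (median 0.11). For this list and those below, the shares over all genes were 6.52% at least 2-fold lower and 4.71% higher in RL-95-2. In HEC-1-A these shares were 0.239% and 0.871%. ATF3, a stress-induced partner of JUN, was at 4.12 CPM with the mimic and 129 CPM with the control in RL-95-2 (log2 ratio -4.95) and at 50.1 and 32.8 CPM in HEC-1-A (0.61). CREB5, which pairs with JUN, was at 2.76 and 55.1 CPM in RL-95-2 (-4.30) and at 516 and 467 CPM in HEC-1-A (0.14). ATF7 and CREB1 had the highest ratios of the list in RL-95-2, at 0.27 and 0.25, and stood at 0.12 and -0.01 in HEC-1-A.

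Of 8 measured MAF and CNC genes, whose proteins pair with MAFF or its relatives, 4 were at least 2-fold lower in RL-95-2 and 1 was at least 2-fold higher in HEC-1-A (medians -1.01 and 0.13). BACH2, a repressor, had 10 counts with the mimic and 74 with the control in RL-95-2 (log2 ratio -2.95) and 103 and 29 counts in HEC-1-A (1.35). NFE2L1, a CNC activator of proteasome genes, had -1.16 and 0.07. NFE2L3, another CNC factor gene, had 0.23 and -0.05.

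Kinases and other factors that act on FOS or JUN were counted in the same way. Of 24 measured in RL-95-2, 3 were at least 2-fold lower, as were 6.52% of all genes, and 0 higher, with a median of -0.19. Of 23 in HEC-1-A, 0 were past 2-fold (median 0.04). MEF2A, a factor that drives JUN, had log2 ratios of -1.61 and 0.25, and MAPK10, a JUN kinase, -1.60 and 0.56. In HEC-1-A, MAPK10 averaged 0.50 CPM, on 27 and 13 counts, and was left out of the count. Its counting interval there was -0.38 to 1.70. MAPK11 and RPS6KA1 had the highest RL-95-2 ratios, at 0.67 and 0.56.

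Of the genes that textbooks list as AP-1 targets, 8 of 17 measured in RL-95-2 were at least 2-fold lower and 0 at least 2-fold higher (median -0.84). PLAU, the urokinase protease gene, was at 270 CPM with the mimic and 2384 CPM with the control (log2 ratio -3.14), and CXCL8, the interleukin 8 gene, at 4.34 and 56.1 CPM (-3.68). PLAUR, the urokinase receptor gene, and IL11 had ratios of 0.51 each, IL11 with a counting interval of -0.02 to 1.09. In HEC-1-A, 1 of 14 measured targets was at least 2-fold higher and 0 lower (median 0.22), with PLAU at 0.04 and PLAUR at 0.53.

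Of 17 measured immediate early genes outside the family, 11 were at least 2-fold lower in RL-95-2 and 0 higher (median -1.22), and 0 were past 2-fold in HEC-1-A by the same rule, with a median of 0.35. ZFP36, which encodes a protein that speeds decay of AU-rich mRNAs, had log2 ratios of -2.10 and 0.35, and EGR1, a zinc finger factor, -2.02 and -0.12. NR4A3 and BTG2 stood highest in RL-95-2, at 0.41 and -0.29. The NR4A3 ratio there had a counting interval of -0.16 to 1.03, on 68 and 40 counts. In HEC-1-A, NR4A3 averaged 0.80 CPM and was left out of the count, with a ratio of 1.03 on 49 and 17 counts. In none of these 5 lists did the edgeR test over both lines call a gene, and it called 0 of all 15957 genes tested.

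Genes nearest to the 3 lowest members by their ratios in both lines were found among 9536 other genes with at least 5 CPM in each line, by the distance between the pairs of log2 ratios. Nearest to FOSB were GDF15 (distance 0.14), ATF3 (0.18) and BEST1 (0.58). Nearest to MAFF were CHAC1 (0.10), TNFRSF10B (0.15) and DUSP8 (0.15), and nearest to FOS were PIM1 (0.09), YPEL5 (0.10) and NFIL3 (0.10). Each distance rests on 2 ratios, 1 per line.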

How the data were processed

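The authors deposited raw counts per gene symbol and FPKM per gene symbol for the 4 libraries. CASAVA, HISAT2 and GRCh38 (hg38) were used, per the submitters' processing notes. The sources used here name no counter, annotation or strand setting. Columns were matched to libraries by the cell line and transfection in their names. The FOS and JUN family members and the other gene lists were chosen with earlier results of these data known.

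The deposited counts were tested with edgeR 4.0.16 in R 4.3.3 (TMM scaling, filter on low counts by transfection, quasi-likelihood F test, Benjamini-Hochberg adjustment over 15957 genes, FDR 0.05). The model held the cell line, which pairs the mimic and control libraries in the labels, and the transfection. With 2 libraries per transfection and 2 lines, p-values reflect only how these libraries vary, which may be technical. Within a line, log2 ratios of CPM used a prior count of 2, with exact 95% binomial intervals from both counts, and counting error is all they cover. Other genes named are those overlapping a member, the 2 highest and 2 lowest of each list in RL-95-2, and the 3 nearest in ratio, except for a result that is not reported here. The alternatives tried were DESeq2 1.42.0, limma 3.58.1 (voom, and log2(FPKM + 1) or log2(FPKM + 0.1)), RLE factors, library totals, a prior count of 0.5, no filter, no replicate block, no covariate and each line or transfection left out. Procedures were tested on simulated data. Start regions came from RefSeq (GRCh38.p14), gene models from GENCODE release 29 (GRCh38).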

Additional observations from a re-analysis of the deposited data

Results flagged for a closer look

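In 7 of the 8 genes the mimic and control libraries stood in opposite order in the lines, with counting intervals clear of 0 on both sides: lower with the mimic in RL-95-2 and higher with it in HEC-1-A. The HEC-1-A log2 ratio minus the RL-95-2 log2 ratio was 5.44 for FOSB, 2.68 for MAFF, 2.23 for FOS, 1.83 for JUN, 1.64 for FOSL2, 1.26 for JUND and 1.18 for FOSL1. These differences between lines were not tested, since each rests on 1 library per line and transfection. JUNB was the member whose HEC-1-A interval held 0.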

How the results depend on the processing

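For mimic over control over both lines, 0 of the 8 genes were called with no replicate block (the pairing by line left out), and 0 under every other tool, scaling and filter run. Over all genes, where the edgeR test with the block called 0, DESeq2 called 2 and limma on log2(FPKM + 0.1) called 3. Leaving out RL-95-2 turned the sign of all 8, but for JUNB only to 0.0007, whose sign changes with the scaling. Without HEC-1-A and then without RL-95-2, the values were -1.94 and 0.29 for FOS, -4.78 and 0.66 for FOSB, -0.97 and 0.21 for FOSL1, -1.12 and 0.52 for FOSL2, -1.37 and 0.46 for JUN, -0.66 and 0.0007 for JUNB, -1.16 and 0.10 for JUND and -2.21 and 0.47 for MAFF. The calls of FOSL1 and JUNB for HEC-1-A over RL-95-2 held under all 7 other fits. With either transfection left out, log2 differences between the lines ran from -0.68 to 1.55 for FOS, -0.97 to 4.56 for FOSB, -0.042 to 1.60 for FOSL2, -0.14 to 1.69 for JUN and -0.073 to 2.61 for MAFF, negative in the control libraries. On CPM in place of FPKM, the log2 ratio of the family sums was -1.11 in RL-95-2 and 0.35 in HEC-1-A. The RL-95-2 ratio of FOSB was -2.52 on log2(FPKM + 1), where the pseudocount of 1 is larger than its FPKM in the mimic library. FOSB at 33 counts has the widest counting interval of the family.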

Other observations

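The count and FPKM of a gene, with the library's total of counts, imply a length. It is the length behind the authors' FPKM only if they scaled by that total, which is not stated. The values are therefore read for their change between libraries. For FOS this length came to 1687 bases in the RL-95-2 mimic library, 2178 in the RL-95-2 control, 2157 in the HEC-1-A mimic and 2269 in the HEC-1-A control library. For FOSB it was 4088 in the RL-95-2 mimic and 3349 in the RL-95-2 control library, on 33 counts in the mimic library. For JUN, which has 1 exon, it stayed between 3960 and 4002 bases in all 4 libraries, against 3540 bases of its GENCODE transcript. The FPKM of FOS therefore does not follow from its count by a fixed length, and the cause was not tested.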
